A study of Mus musculus with 7 samples.

Results

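The genes Runx1, Runx2 and Runx3, which encode the RUNX transcription factors, and Cbfb, which encodes their common partner, were examined at the level of open chromatin in developing mouse teeth and in embryonic facial ectoderm. They are Runx1 (gene ID 12394, chr16:92601466-92826074, minus strand), Runx2 (12393, chr17:44495987-44814797, minus strand), Runx3 (12399, chr4:135120645-135177990, plus strand) and Cbfb (12400, chr8:105170674-105217989, plus strand), all on GRCm38. These 4 genes were given by name, out of 20661 autosomal protein-coding genes, and every peak inside a gene body or within 100 kb of it was taken from each of 7 libraries. The assay was ATAC-seq, where a transposase inserts adapters into accessible DNA, and each library is represented by the list of peaks that the authors called in it. First pharyngeal arch ectoderm from embryonic day 11.5, peeled from the mesenchyme after Dispase II digestion, gave 2 libraries. Sox2-positive cells sorted from the dissociated labial cervical loop of lower incisors at postnatal day 2 (P2) gave another 2. They came from a Sox2-GFP line, in which the endogenous Sox2 promoter drives the fluorescent protein, and the labels call them DESC. Whole lower incisor, whole lower first molar and whole upper first molar at P2 gave 1 library each. Strain, pooling of animals and the origin of replicates from separate litters are not given in the sources used here, so p-values measure only the spread between these libraries, which may be technical.

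RUNX proteins bind DNA through the Runt domain, which also binds CBFB. CBFB makes no contact with DNA of its own and strengthens binding by its RUNX partner. RUNX1 is known for its part in the origin of blood stem cells, RUNX2 for osteoblast and tooth formation, and RUNX3 for the development of T cells and sensory neurons. Each Runx gene is transcribed from a distal and a proximal promoter, and the proteins made from them differ at their N-terminus.

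Start positions came from a set of starts drawn from RefSeq (GRCm38.p6, the same primary assembly as mm10), which did not cover every gene. It held a distal and a proximal start for Runx1 and Runx3, a distal start for Runx2 and a single start for Cbfb. The proximal start of Runx2 was not in the set and was not placed here. In a window from 250 bases before to 50 after the start, the distal promoters of all 3 Runx genes held an identical run of 18 bases. It contains 2 copies of ACCACA, which is the RUNX core motif TGTGGT on the other strand. The run is shown in capitals with 6 bases on either side, 5′ to 3′ on the strand of the gene, because it is what the 3 distal promoters have in common.

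Runx1 distal: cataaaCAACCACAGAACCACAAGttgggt
Runx2 distal: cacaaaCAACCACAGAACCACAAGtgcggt
Runx3 distal: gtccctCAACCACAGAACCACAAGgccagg

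The run lies at chr16:92826031-92826048 (minus strand) in Runx1, beginning 26 bases after the start. In Runx2 it lies at chr17:44814589-44814606 (minus strand), 21 bases after the start. In Runx3 it lies at chr4:135120509-135120526 (plus strand), 136 bases before the start. Among 32817 start windows of the same length it was found on either strand in 4, those of the 3 Runx distal promoters and of the lncRNA Gm16225, whose window overlaps the distal promoter of Runx3. The core TGTGGT alone, searched on both strands, was in 16.8% of these windows, and 1.81% held 2 or more copies. Runx2 held 3 copies and Runx1 and Runx3 held 2 each, while no copy was found in the proximal windows of Runx1 and Runx3 or at the start of Cbfb. A match describes the letters only.

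The distal and proximal promoters also differ in CpG content. The 250 bases before each start of Runx1 and Runx3 are shown to make that contrast visible, with each CpG in capitals.

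Runx1 distal, chr16:92826075-92826324, minus strand: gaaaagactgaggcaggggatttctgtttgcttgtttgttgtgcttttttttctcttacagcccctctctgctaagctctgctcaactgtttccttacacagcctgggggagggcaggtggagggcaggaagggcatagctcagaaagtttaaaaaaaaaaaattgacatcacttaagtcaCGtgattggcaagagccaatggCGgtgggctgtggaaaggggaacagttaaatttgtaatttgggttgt
Runx1 proximal, chr16:92697330-92697579, minus strand: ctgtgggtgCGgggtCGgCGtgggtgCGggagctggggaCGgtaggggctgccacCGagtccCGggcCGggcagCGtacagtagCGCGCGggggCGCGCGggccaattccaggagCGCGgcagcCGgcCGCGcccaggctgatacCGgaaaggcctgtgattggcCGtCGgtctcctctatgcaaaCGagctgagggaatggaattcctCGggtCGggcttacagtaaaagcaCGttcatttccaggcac
Runx3 distal, chr4:135120395-135120644, plus strand: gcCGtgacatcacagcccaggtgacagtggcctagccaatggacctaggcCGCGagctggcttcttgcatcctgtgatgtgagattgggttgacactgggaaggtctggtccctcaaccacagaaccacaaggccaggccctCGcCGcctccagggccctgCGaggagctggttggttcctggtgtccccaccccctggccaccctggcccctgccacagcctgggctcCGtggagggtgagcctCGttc
Runx3 proximal, chr4:135152295-135152544, plus strand: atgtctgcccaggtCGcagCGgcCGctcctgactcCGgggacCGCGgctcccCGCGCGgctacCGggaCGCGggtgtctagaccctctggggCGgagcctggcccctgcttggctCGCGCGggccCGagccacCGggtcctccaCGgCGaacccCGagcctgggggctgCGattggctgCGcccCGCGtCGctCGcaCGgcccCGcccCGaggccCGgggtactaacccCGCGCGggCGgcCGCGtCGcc

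Over the whole window there were 2 CpG in the distal promoter of Runx1 and 35 in its proximal promoter, with ratios of observed to expected CpG of 0.137 and 1.01. Runx3 had 8 and 45 CpG, with ratios of 0.264 and 1.01. The distal promoter of Runx2 had 2 CpG and a ratio of 0.143, and the start of Cbfb had 30 and a ratio of 0.987. The median ratio over all start windows was 0.383, so the distal promoters lay below the median and the proximal promoters and Cbfb above it. The distal promoters were not alike in GC content. It was 45.0% in Runx1 and 45.3% in Runx2, below the median of 52.7%, and 63.7% in Runx3, above it.

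The lists were of unequal length. They held 80850 and 49719 autosomal peaks for ectoderm, 41829 and 38326 for the sorted cells, and 62074, 68877 and 67193 for incisor, lower molar and upper molar. Read depth is unknown, so results are given for the full autosomal lists and again for the best 38000 autosomal peaks per list by p-value. The lowest −log10 p kept by that rule ran from 2.94 in Sox2-positive replicate 2 to 4.79 in ectoderm replicate 1. The signal of a peak is the caller's own value for it and was not normalized between libraries. It is therefore given with its percentile in its own full list, and the absolute values are not compared between libraries. Because the lists differ in length, equal percentiles in 2 lists are not equal ranks from the top. As each library is a bulk sample, fewer cells of a type and less accessible chromatin per cell cannot be told apart. With 2 libraries against 2, the smallest two-sided exact permutation p is 0.333, so no such comparison could reach the usual significance threshold. The whole-tooth libraries have no replicate.

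All 3 distal Runx promoters had a peak within 1 kb of the start in every P2 library, sorted cells and whole teeth alike, and none in either ectoderm library. The start of Cbfb and the proximal promoter of Runx1 had a peak in all 7 libraries. Over 20084 annotated starts of autosomal protein-coding genes, 0.493% had a peak in both Sox2-positive and neither ectoderm library, and 0.373% in all 5 P2 and neither ectoderm library. A peak in all 7 libraries was found at 54.9% of starts. A peak was listed at 67.4% and 64.9% of all starts in ectoderm, 59.0% and 57.9% in the sorted cells, 61.7% in incisor, 62.8% in lower molar and 62.8% in upper molar. Whether read depth has a part in the missing ectoderm peaks was not tested.

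By rank, Runx3 had the strongest of the distal promoters. Its peak, within chromosome 4 from 135119738 to 135120918, had signals of 2613 and 3903 in Sox2-positive cells, at percentiles 95.0 and 97.8 of their lists. The signal was 4088 in incisor (percentile 97.1), 2058 in lower molar (87.7) and 2024 in upper molar (86.9). It ranked high in each P2 list, while the nearest ectoderm peaks were 8.18 and 13.5 kb from the start. Summits lay between 50 and 66 bases before the start. The region also covers the start of the lncRNA Gm16225, and a peak cannot be assigned to one of the 2 genes.

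The distal promoter of Runx2, on chromosome 17 from 44814424 to 44815333, differed between the Sox2-positive replicates. The signal was 263 in replicate 1 (percentile 16.4) and 1176 in replicate 2 (percentile 75.5). It was 1328 in incisor (77.9), 545 in lower molar (48.2) and 763 in upper molar (60.2). The summit was in the same place in all 5 P2 libraries, between 100 and 103 bases before the start. No ectoderm peak came closer than 15.1 kb in replicate 1 or 29.8 kb in replicate 2. The promoter lies inside Supt3, a gene that overlaps Runx2.

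At the distal promoter of Runx1, on chromosome 16 from 92825863 to 92826536, peaks ranked nearer the middle of the lists. Signals were 527 and 913 in Sox2-positive cells (percentiles 50.4 and 67.8), 1048 in incisor (71.5), 469 in lower molar (41.8) and 635 in upper molar (53.4). Summits lay 54 to 76 bases after the start. Ectoderm had no peak here, but both libraries had one 2.0 kb upstream, with signals of 1039 and 236. That upstream region, on chromosome 16 from 92828071 to 92828794 and singled out after its values were seen, also had a peak in Sox2-positive replicate 1, incisor and both molars. Counting peaks within 2.5 kb in place of 1 kb therefore left 2 of the 3 distal promoters with a peak in both Sox2-positive and neither ectoderm library.

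In the lists of equal length, all 3 distal promoters had a peak in both Sox2-positive and neither ectoderm library, against 1.12% of all starts. A shorter list can only lose peaks, so the absence from ectoderm was already given by the full lists. The Sox2-positive lists also lost few peaks, from 41829 and 38326 to 38000. The distal promoters of Runx2 and Runx3 kept a peak in all 5 P2 libraries and neither ectoderm library, a pattern of 0.578% of all starts. The peak at the distal promoter of Runx1 was then missing from both molars. Keeping only the better 50% of each list by p-value left 1 of the 3, Runx3, in both Sox2-positive and neither ectoderm library. The run of 18 bases lay under a peak in all 5 P2 libraries and in neither ectoderm library at each of the 3 promoters. It begins at most 136 bases from a start, under the same peaks, so this repeats the promoter result.

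The proximal promoter of Runx1, 129 kb downstream of the distal start, was among the strongest peaks of each list. Signals were 4894 and 3541 in ectoderm, 2806 and 3044 in the sorted cells, 4738 in incisor, 3904 in lower molar and 4078 in upper molar. Their percentiles ran from 92.7 to 98.1, with widths of 1884 to 2524 bp against 405 to 664 bp at the distal promoter. The summit was 68 to 71 bases before the start in every library. It was in all 7 lists of 38000 peaks too, as was the start of Cbfb, against 50.7% of all starts.

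The proximal promoter of Runx3, 31.9 kb downstream of the distal start, was weak. Its signal was 368 in ectoderm replicate 1 (percentile 27.6), with no peak in replicate 2. Sox2-positive cells had 227 and 469 (percentiles 7.68 and 42.8), incisor 1284 (77.0), lower molar 329 (25.3) and upper molar 281 (16.9). Only Sox2-positive replicate 2 and incisor kept it among 38000 peaks. In each of the 5 P2 libraries the distal promoter of Runx3 ranked above the proximal one, and in each of them the proximal promoter of Runx1 ranked above the distal one.

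Cbfb had 1 promoter peak, on chromosome 8 from 105170004 to 105171943. Signals were 3364 and 3247 in ectoderm, 1656 and 2431 in the sorted cells, 3718 in incisor, 3606 in lower molar and 3358 in upper molar. The percentiles ran from 86.6 to 96.2. Those of ectoderm (93.6 and 91.1) and Sox2-positive cells (86.6 and 92.0) overlapped. The summit lay 140 to 215 bases before the start.

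**Figure D1:**
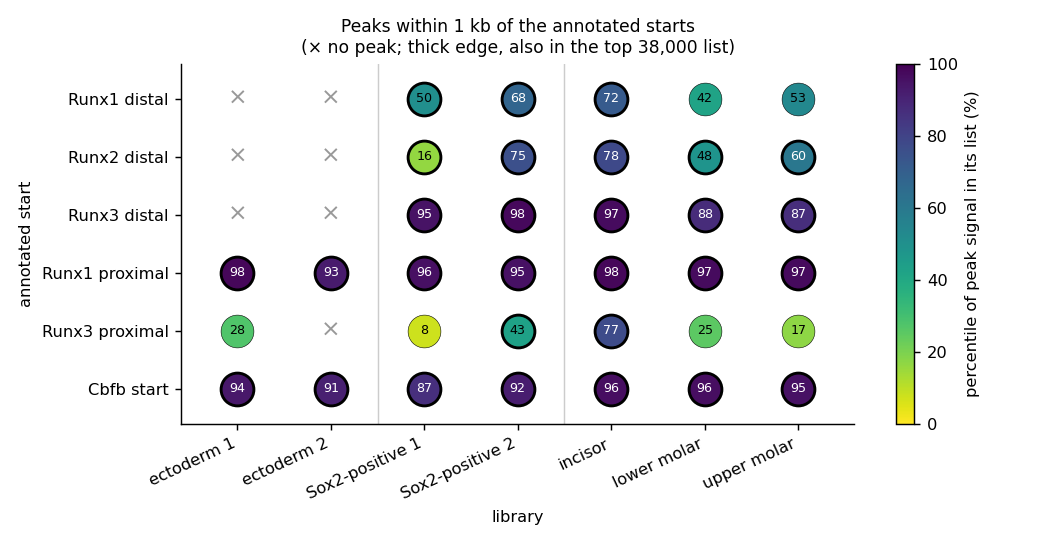
Peaks within 1 kb of 6 annotated starts (rows) in 7 libraries (columns), with colour and printed number giving the percentile of the peak's signal in its own list, a cross for no peak and a thick edge for peaks also among the 38000 best of the list. The 3 distal Runx promoters are empty in both ectoderm libraries and filled in all 5 P2 libraries, and the proximal promoter of Runx1 and the start of Cbfb are filled in all 7.

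Starts included, the 7 full lists merged into 180 regions over the 4 loci, 65 at Runx1, 49 at Runx2, 43 at Runx3 and 23 at Cbfb. The tables used here give gene ends and starts but no exons, so sites inside a gene are called internal and are not split into introns and exons. Internal regions numbered 42 at Runx1, 36 at Runx2, 14 at Runx3 and 2 at Cbfb. A peak in 1 library alone was the source of 21, 22, 9 and 4 regions. Runx1 and Runx2 are long genes with few neighbours, whereas 13 other protein-coding genes lie within 100 kb of Cbfb.

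Regions with a peak in all 5 P2 libraries and neither ectoderm library numbered 17 of 180 (9.44%, against 4.61% of all 128642 autosomal regions), 7 at Runx1, 5 at Runx2, 4 at Runx3 and 1 at Cbfb. Regions in both ectoderm libraries and no other numbered 8 (4.44%, against 11.7%), 4 at Runx1, 1 at Runx2, 3 at Runx3 and 0 at Cbfb. Those in all 7 libraries numbered 24 (13.3%, against 14.2%), 6, 2, 4 and 12. In the lists of equal length the 3 counts were 17 of 119 (14.3%, against 6.29%), 7 (5.88%, against 12.8%) and 12 (10.1%, against 19.2%).

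At Runx1, every internal region open in all 7 libraries lay at or downstream of the proximal promoter. Of the regions found in all 5 P2 libraries and neither ectoderm library, the one with the highest median percentile, on chromosome 16 from 92650029 to 92651111, is 176 kb downstream of the distal start. It had signals of 1420.5 and 1120.1 in Sox2-positive cells (percentiles 82.9 and 74.0), 1932 in incisor, 2397 in lower molar and 2176 in upper molar, and no ectoderm peak. A second, at 92614875 to 92615768, had 855 and 564 in Sox2-positive cells, 1091 in incisor, 1734 in lower molar and 1727 in upper molar. Both kept this pattern with 38000 peaks per list. Another, singled out after its values were seen, lay 65.1 kb upstream of the distal start, at 92890447 to 92891947, and ranked highest in the molars (percentiles 88.3 and 91.2, against 39.7 and 54.3 in Sox2-positive cells).

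The internal region of Runx1 with the highest rank was open in all 7 libraries, at 92630751 to 92632655. Percentiles were 78.6 and 56.2 in ectoderm, 97.2 and 97.0 in the sorted cells, 92.9 in incisor, 98.2 in lower molar and 98.2 in upper molar, so that both ectoderm libraries ranked it below every P2 library. It was missing from ectoderm replicate 1 at equal list length. An internal region 42.8 kb downstream of the distal start, at 92782221 to 92784234, had 432 in ectoderm replicate 1 and no peak in replicate 2. Its signal was 361 and 2040 in Sox2-positive cells, 3827 in incisor, 2080 in lower molar and 994 in upper molar. The Sox2-positive replicates stood far apart there, at percentiles 33.1 and 89.0.

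Ectoderm had sites of its own in Runx1. The region at 92730363 to 92731174, between the distal and the proximal promoter, had signals of 1491 and 442 in ectoderm (percentiles 76.8 and 36.8) and no peak elsewhere. The region at 92744010 to 92744664 had 865 and 394. With 38000 peaks per list only the first kept its peak in both ectoderm libraries. Upstream of the gene, a region at 92858055 to 92858895 was found in the 3 whole teeth (893 in incisor, 1747 in lower molar, 1875 in upper molar) and not in the sorted cells or in ectoderm. Another at 92853049 to 92853660 was found in the molars alone, with 989 and 1047.

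**Figure D2:**
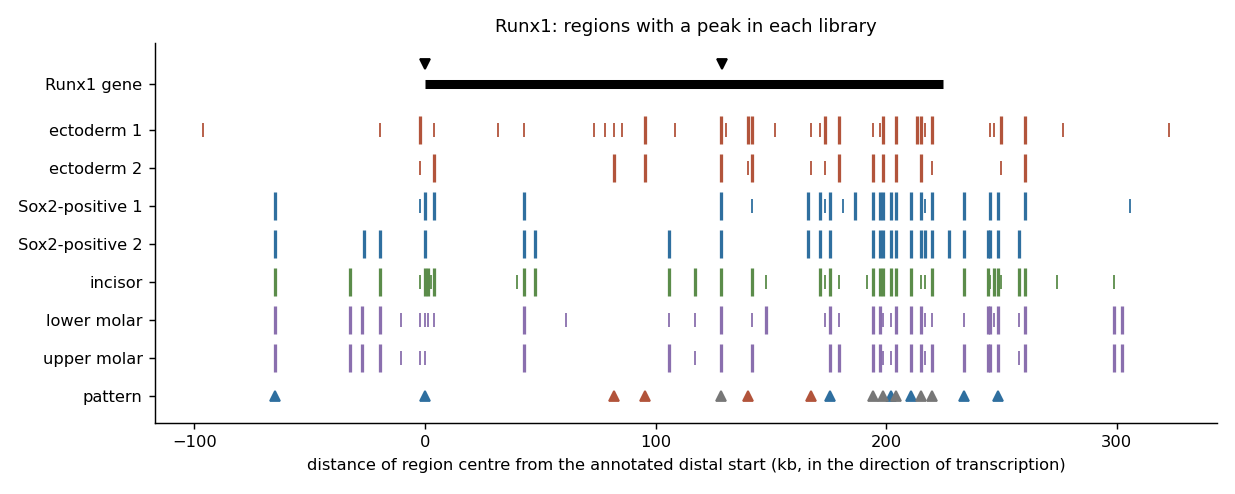
Regions around Runx1 with a peak in each library, by distance of the region's centre from the distal start in kb, with tall ticks for peaks also among the 38000 best of the list and short ticks for the rest. The black bar is the gene and the black triangles its distal and proximal starts. Triangles in the lowest row mark regions in all 5 P2 libraries and no ectoderm library (blue, 7 regions), both ectoderm libraries alone (red, 4) and all 7 libraries (grey, 6).

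Runx2 held the strongest ectoderm site of the 4 loci that was missing from the sorted cells. It lies inside the gene, 144 kb downstream of the distal start, on chromosome 17 from 44669851 to 44671185. Signals were 4695 and 3813 in ectoderm (percentiles 97.7 and 94.0), 595 in lower molar and 718 in upper molar (percentiles 51.9 and 58.0). Neither Sox2-positive library nor incisor had a peak there. In the full lists the only Runx2 region in both ectoderm libraries and no other was weaker, at 44784559 to 44785049, with 961 and 297. At equal list length 3 Runx2 regions had this pattern. The others, named after their values were seen, were 44540488 to 44541475 (1379 and 963) and 44587901 to 44588518 (928 and 590). In the full lists both also had a lower molar peak (232 and 367). Thus the ectoderm lists had an internal site near the top of their ranks while the distal promoter was empty.

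Among P2 sites of Runx2, an internal region at 44617995 to 44618598 had signals of 741 and 634 in Sox2-positive cells, 990 in incisor, 826 in lower molar and 835 in upper molar. Beyond the 3′ end of the gene, a region at 44421817 to 44422670 had 533 and 518 in Sox2-positive cells, 1627 in incisor, 904 in lower molar and 845 in upper molar. Both were absent from ectoderm and kept the pattern with 38000 peaks per list. Open in all 7 libraries were the start of Supt3, inside Runx2 at 44776679 to 44778005, and a region 2806 bp wide at 44733950 to 44736755. The latter is 79.3 kb downstream of the distal start and had 1369 and 1560 in ectoderm, 434 and 724 in the sorted cells, 1120.5 in incisor, 1361 in lower molar and 1073 in upper molar. Its percentiles were 41.7 and 59.8 in the Sox2-positive libraries and 71.1 to 78.5 in the others. These refer to lists of unequal length, so they do not give the order of the libraries by rank from the top. At equal list length the broad region was missing from incisor and present in both Sox2-positive libraries, while the Supt3 start kept its peak in all 7 libraries. The starts used here lack the proximal start of Runx2, so whether it lies in the broad region could not be read from them.

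At Runx3, the distal promoter was 1 of 4 regions in all 5 P2 libraries and neither ectoderm library. One of the others, singled out after its values were seen, lies 6.97 kb upstream, at 135113302 to 135114040 on chromosome 4, with signals of 479 and 1129 in Sox2-positive cells, 1158 in incisor, 778 in lower molar and 590 in upper molar. Another lies between the distal and the proximal promoter, at 135146376 to 135147363, with 680 and 1183 in Sox2-positive cells, 1965 in incisor, 873 in lower molar and 919 in upper molar. Neither had an ectoderm peak, and both kept the pattern with 38000 peaks per list. Ectoderm had 3 sites of its own. Of these, 2 lay farther upstream, at 135106644 to 135107663 (1079 and 392) and at 135031031 to 135031886 (1524 and 572). The third, added after its values were seen, lay between the distal and the proximal promoter, at 135150295 to 135150751 (445 and 499). It was missing from ectoderm replicate 1 at equal list length. An internal region at 135166207 to 135167326 was shared by all 7 full lists, with percentiles from 49.7 to 74.9. It was missing from lower molar at equal list length.

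Cbfb had few internal sites. Of the 12 regions open in all 7 libraries in its window, 11 lay within 1 kb of an end of another gene, the Cbfb promoter among them because the snRNA Gm22063 lies beside it. The 1 region in all 5 P2 libraries and neither ectoderm library was 6.06 kb upstream of the start, at 105164149 to 105165088 on chromosome 8. It had signals of 708 and 1109 in Sox2-positive cells (percentiles 62.0 and 73.7), 1735 in incisor, 907 in lower molar and 841 in upper molar. With 38000 peaks per list it kept its peak in all 5. The only other internal region of Cbfb, at 105186591 to 105186874, was found in incisor and lower molar.

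**Figure D3:**
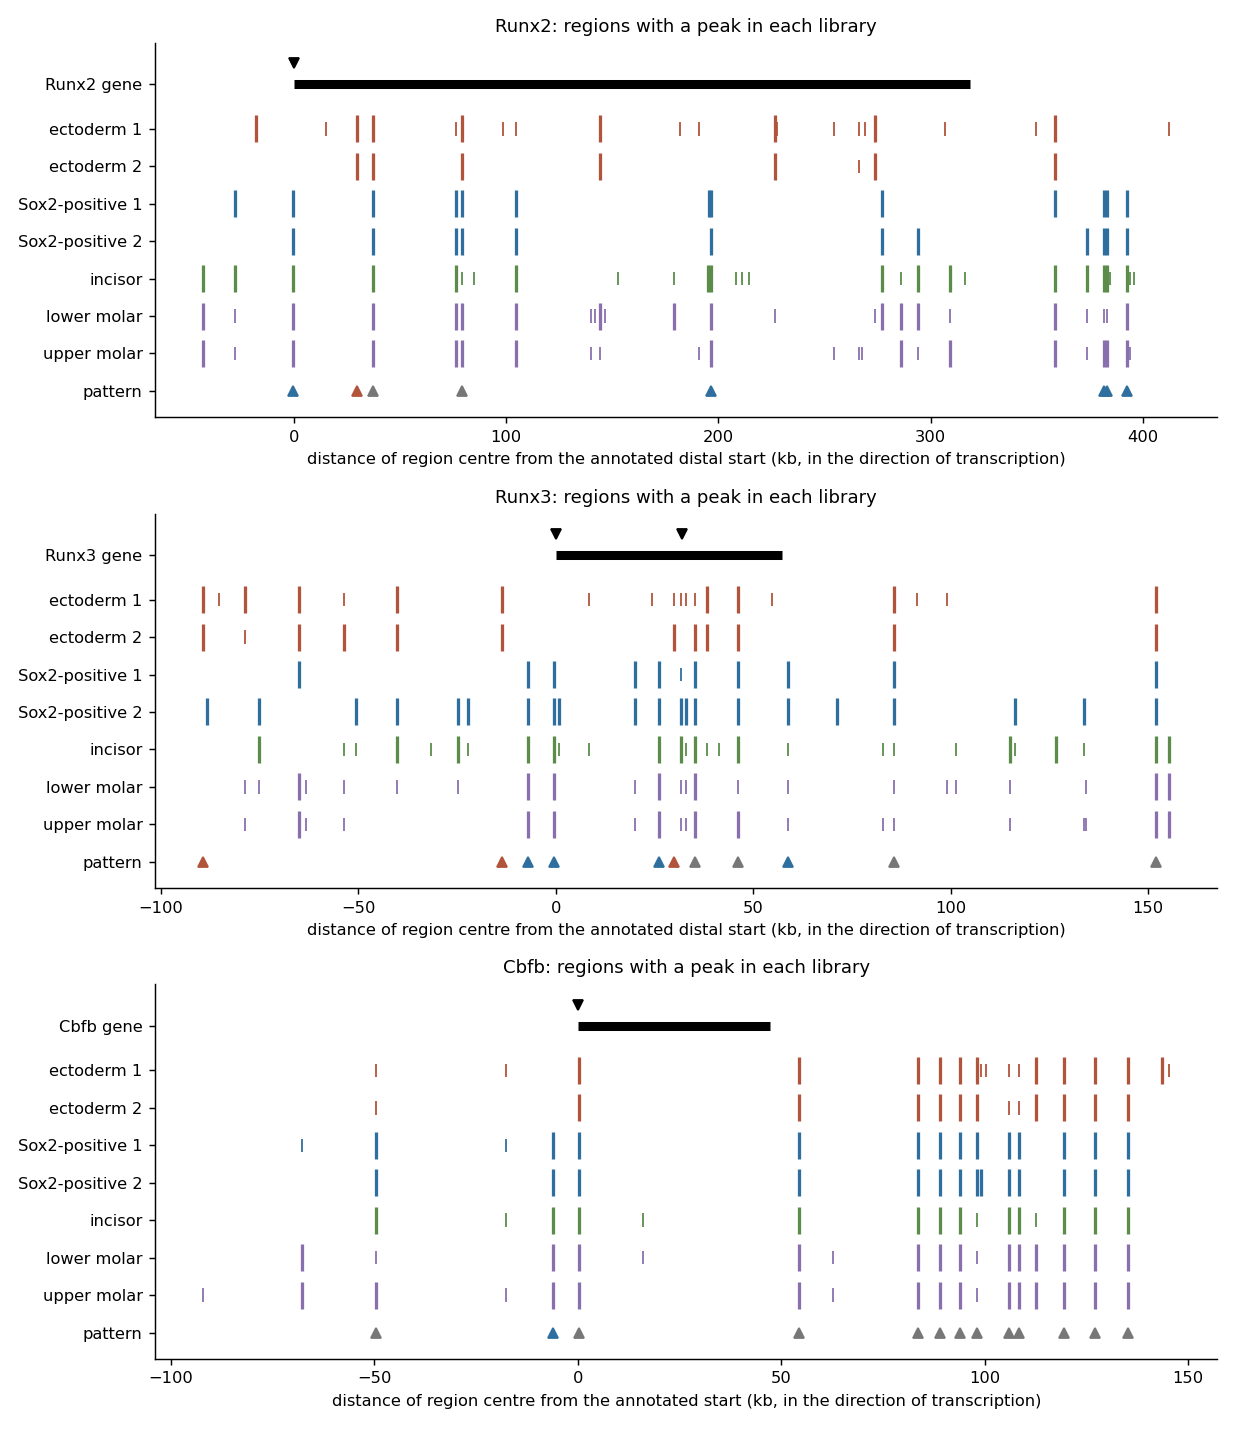
Regions around Runx2, Runx3 and Cbfb, drawn as for Runx1 by distance from the annotated distal start (for Cbfb, its only start) in kb. Blue triangles, for regions in all 5 P2 libraries and no ectoderm library, stand at the distal starts of Runx2 and Runx3 and 6.06 kb upstream of Cbfb, and the grey triangles of Cbfb, for regions in all 7 libraries, lie mostly over its neighbours.

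The first comparison of groups asked how the loci differed between embryonic ectoderm and the sorted cells. In the full lists Runx1 had 37 and 19 peaks within 100 kb in ectoderm (28.0 ± 12.7, SD, n = 2) and 31 and 28 in Sox2-positive cells (29.5 ± 2.12, SD, n = 2). Runx2 had 22 and 8 against 13 and 13, Runx3 had 20 and 12 against 12 and 21, and Cbfb 19 and 16 against 16 and 15. The groups overlapped or touched at all 4 loci, whereas both ectoderm counts exceeded both Sox2-positive counts at 48.5% of all genes and the reverse held at 1.92%. The difference of the summed counts was 2 peaks, with an exact two-sided permutation p of 1.

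In the lists of equal length the counts moved apart. Runx1 then had 14 and 13 peaks in ectoderm (13.5 ± 0.707, SD, n = 2) and 25 and 28 in Sox2-positive cells (26.5 ± 2.12, SD, n = 2), Runx2 had 8 and 7 against 13 and 13, and Cbfb 11 and 12 against 14 and 15. Both Sox2-positive libraries were above both ectoderm libraries at these 3 loci, with an exact permutation p of 0.333 at each, the smallest that the design allows. This held at 20.7% of all genes, and the reverse, seen at 0 of the 4 loci, at 22.5%. Runx3 had 9 and 11 in ectoderm against 10 and 21, so the groups overlapped and Sox2-positive replicate 2 alone was high. Ectoderm replicate 1 lost the most peaks to the shorter list, from 37 to 14 at Runx1, and its full list was the longest of the 7.

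Among the 3 whole teeth, incisor had the most peaks in the full lists at the Runx genes, with 43 at Runx1, 29 at Runx2 and 28 at Runx3. Lower molar had 40, 25 and 23, and upper molar had 33, 23 and 20. At Cbfb the 3 teeth had 17, 19 and 19. At equal list length incisor had 28, 16, 13 and 12 peaks at Runx1, Runx2, Runx3 and Cbfb, lower molar 19, 14, 7 and 13, and upper molar 24, 13, 8 and 15. The median over all genes was then 6 in every library. Each window is the gene body with 100 kb on either side, so windows differ in length between genes. The gene bodies span 225 kb at Runx1, 319 kb at Runx2, 57.3 kb at Runx3 and 47.3 kb at Cbfb. Counts were not scaled by window length, so they do not show a density of peaks.

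**Figure D4:**
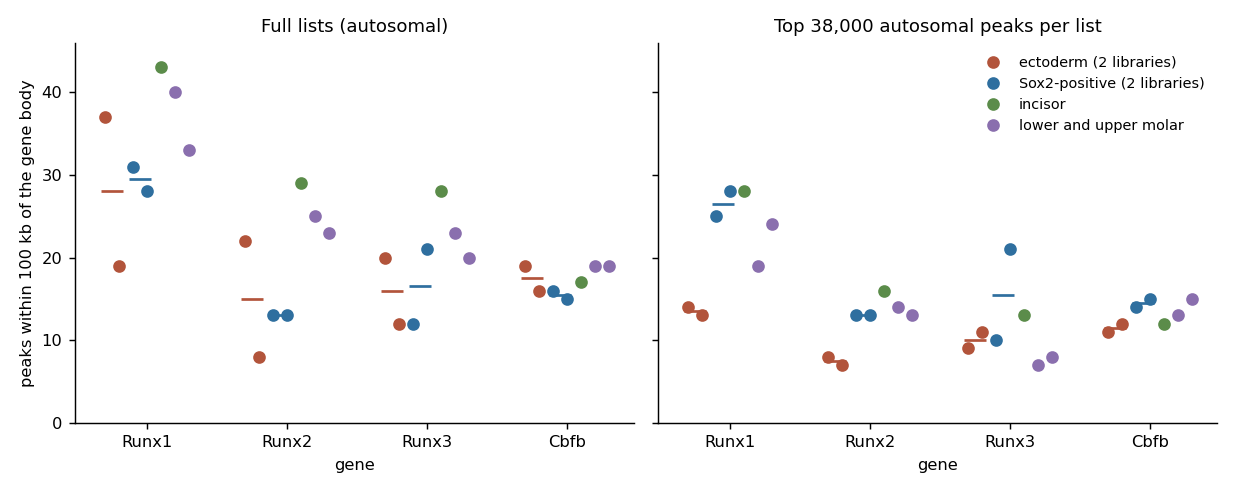
Peaks within 100 kb of each gene body in each library (points), with short lines for the means of the 2 ectoderm and the 2 Sox2-positive libraries, for full lists (left) and for 38000 peaks per list (right). In the left panel the ectoderm points spread widely, from 19 to 37 at Runx1, and in the right panel both lie below both Sox2-positive points at Runx1, Runx2 and Cbfb.

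Counted as regions, 20 of the 139 formed from the 4 replicated libraries over these loci had a peak in both Sox2-positive and neither ectoderm library (14.4%, against 7.78% of all regions). They comprised 8 at Runx1, 6 at Runx2, 5 at Runx3 and 1 at Cbfb. The reverse pattern was found in 18 (12.9%, against 23.1%), with 6, 5, 6 and 1. At equal length there were 29 of 104 (27.9%, against 14.4%) and 11 (10.6%, against 18.4%). The Sox2-positive count was 38 without Sox2-positive replicate 1, and the ectoderm count was 50 without ectoderm replicate 2.

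The sorted cells were next compared with whole incisor, the tooth that contains their cervical loop. Of 128 regions, 2 were present in both libraries of sorted cells and absent from incisor (1.56%, against 1.87% of all regions). They are named because they are so few, after their values were seen. One, inside Runx1 on chromosome 16 at 92659877 to 92660403, had signals of 392 and 599 and no peak in any other library. The other, inside Runx3 on chromosome 4 at 135140330 to 135140970, had 351 and 536 and was also found in both molars. In the other direction, 39 regions were in incisor and neither Sox2-positive library (30.5%, against 29.9%), 13 at Runx1, 14 at Runx2, 10 at Runx3 and 2 at Cbfb. At equal length the counts were 8 of 93 (8.60%, against 7.1%) and 11 (11.8%, against 12.2%). Both shares were thus near those of all regions.

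Between tooth types, 12 of 138 regions were in both molars and not in incisor (8.70%, against 17.9% of all regions), and 25 were in incisor and neither molar (18.1%, against 13.9%). Runx2 and Runx3 had 9 each of the incisor regions, Runx1 had 7 and Cbfb 0. At equal length these were 10 of 83 (12.0%, against 16.4%) and 20 (24.1%, against 18.5%). Each tooth had 1 library, so these counts have no replicate check.

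Other genes of the RUNX pathway were read at their starts from lists of partners and targets. Each gene was scored once, also where it had several starts, whereas the shares of all starts count every start singly. Of 15 partners and cofactors, 13 had a start in the set used here. All 13 had a peak in all 7 libraries, as did 54.9% of all starts. The 13 included the corepressor genes Tle1 to Tle4 and the coactivator genes Yap1 and Wwtr1. In the lists of equal length 12 had one in all 7, against 50.7% of all starts, and Tle2 did not. Of 7 skeletal and dentin targets with a start, Ibsp, which encodes bone sialoprotein, had a peak in all 5 P2 libraries and neither ectoderm library, a pattern of 0.373% of all starts. Bglap, which encodes osteocalcin, and the collagenase gene Mmp13 had one in Sox2-positive replicate 2 and the 3 teeth, and not in replicate 1. Alpl had one in all 7 libraries, and Spp1, Col10a1 and Ihh in none. At equal list length Ibsp kept its pattern, whereas Alpl had no peak in Sox2-positive replicate 1, Mmp13 none in either molar and Bglap none in upper molar. Of 6 genes of the dental epithelium with a start, the enamel matrix gene Ambn had the same pattern as Ibsp. Klk4, which encodes an enamel protease, had a peak in every library but incisor and lower molar. Socs3 and Stat3 had a peak in all 7 libraries, and Amtn and Odam in none. At equal list length the only change in these 6 was the loss of Klk4 from upper molar. Of 4 blood targets and partners with a start, Gfi1 and Tal1 had a peak in both ectoderm and neither Sox2-positive library, a pattern of 5.9% of all starts. With 38000 peaks per list it was seen at neither gene, and at 3.5% of all starts. Gata2 had a peak in all 7 full lists, and at equal length none in Sox2-positive replicate 1 or either molar. Itga2b had none in any library.

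Markers of the cell types that the samples could hold were read in the same way. All 3 epithelial genes with a start, Krt5, Krt14 and Epcam, had a peak in all 7 libraries, and at equal list length Epcam lost that of incisor. Of 5 mesenchymal genes, 4 had a peak in each Sox2-positive library, 4 in incisor, 4 in lower molar, 5 in upper molar, and 2 and 3 in ectoderm, with the shares of all starts per library as given above. Twist1 and Col1a2 had a peak in all 7 libraries, Prrx1 in all but ectoderm replicate 1, and Col3a1 in upper molar alone. Pdgfra was the 1 gene of the 5 with a peak in all 5 P2 libraries and neither ectoderm library. At equal list length Pdgfra and Col1a2 kept their patterns, Twist1 had no peak in ectoderm replicate 1, Prrx1 none in either molar or in ectoderm replicate 1, and Col3a1 none in any library. Of 5 blood and immune genes, Ptprc, Fcer1g, Cd53 and Laptm5 had no peak in any library and Coro1a had one in all 7. Of 4 endothelial genes, Kdr had a peak in all 7, Tie1 in Sox2-positive replicate 2, incisor and lower molar, and Tek and Emcn in none. Kdr had no peak in the 3 teeth, and Tie1 none in lower molar, at equal list length. Of the skeletal, mesenchymal and endothelial genes, Bglap, Mmp13 and Tie1 had a full-list peak in Sox2-positive replicate 2 and not in replicate 1. Ibsp, Alpl, Pdgfra, Twist1, Prrx1, Col1a2 and Kdr had one in both, and Spp1, Col10a1, Ihh, Col3a1, Tek and Emcn in neither. Replicate 2 had the higher percentile at the distal promoters of Runx1, Runx2 and Runx3. This was not particular to distal promoters. Replicate 2 was also higher at the start of Cbfb (92.0 against 86.6) and the proximal promoter of Runx3 (42.8 against 7.68). At the proximal promoter of Runx1 it was slightly lower (95.4 against 95.9). A link between these differences was not tested. The part of mesenchymal cells in the distal promoter peaks was not tested.

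Genes elsewhere whose windows followed the same course were sought by Pearson correlation of the base pairs under peaks over the 7 lists of 38000 peaks. The 7 libraries include replicates of 2 groups, and the values describe these lists only. For Runx1 the nearest of 18181 genes were Cdrt4 (r = 0.971), Aktip (0.970) and Ifngr1 (0.966). For Runx2 they were Plxna4 (0.994), Pitpnm3 (0.991) and Xdh (0.987), and for Runx3 Prss46 (0.989), Ncoa5 (0.981) and Ptges (0.972). For Cbfb they were the neighbours Rexo2, Rbm7 and Gm5617 on chromosome 9, which share the same peaks (0.964 each). Runx2 itself had 6.29 and 6.58 kb under peaks in ectoderm, 7.18 and 8.31 kb in the sorted cells, 10.2 kb in incisor, 9.70 kb in lower molar and 10.01 kb in upper molar, an order that placed ectoderm lowest and the whole teeth highest.

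The border of 100 kb decided a few sites. The outermost regions counted lay 98.3 kb from Runx1, 93.9 kb from Runx2, 98.2 kb from Runx3 and 98.1 kb from Cbfb, and the nearest left out lay 102, 100.4, 108 and 108 kb away.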

How the data were processed

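The 7 deposited files are peak lists in narrowPeak layout, 1 per library. The submitters' processing notes name Trimmomatic, FastQC, Bowtie2, deepTools and Genrich and the build mm10. Versions, options, read filters and the handling of the transposase offset are not given in the sources used here. The deposited signal of a peak (column 7) and its deposited −log10 p (column 8) were used to rank peaks within a list. The deposited score and the q-value field, which holds −1, were not used. Peak lists hold no read counts, so depth is unknown and no count model was applied.

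Peaks on the 19 autosomes were used, in full and as the 38000 per list with the highest −log10 p, ties broken by signal. Peaks sharing at least 1 bp were merged into regions, separately for each set of libraries compared. A library had a region if any of its peaks lay in it. Starts and sequences came from a set of starts drawn from RefSeq (GRCm38.p6). It held 20084 starts for 16456 of the 20661 autosomal protein-coding genes, and shares of all starts refer to this set. All 4 genes matched by symbol. Counting was tested on simulated lists. Groups were compared with an exact two-sided permutation test over libraries, and regions were counted without a test. The genes, lists and rules were chosen with earlier results of these data known. Named regions are those over the starts, the strongest by median percentile inside and outside each gene, and the strongest of each group pattern. Analyses used Python 3.11.15, numpy 2.4.6 and pandas 2.3.3.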

Additional observations from a re-analysis of the deposited data

How the results depend on the processing

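The sign of the summed difference in peaks within 100 kb (ectoderm minus Sox2-positive, 2 peaks in the full lists) depended on list length. It was −27 with 38000 peaks per list by p-value and −26.5 by signal, and it ran from −19.5 to 23.5 when each replicate was left out. It was −0.5 without Sox2-positive replicate 1. Single genes turned sign too. Runx2 gave −5.5 by p-value and −4.5 by signal, and Cbfb −3 under both and −1 within 25 kb. Runx1 gave 1 in the gene body alone. Leaving out each replicate gave −10.5 to 7.5 for Runx1 and −5 to 9 for Runx2, and for Runx3 it gave 3.5 without ectoderm replicate 2 and 4 without Sox2-positive replicate 2. The cause was not tested.

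Ectoderm regions absent from Sox2-positive cells numbered 11 with 38000 peaks by p-value and 11 by signal, 10 in the stricter 50% of each list, and 19 to 50 with a replicate left out. Sox2-positive regions absent from ectoderm numbered 10 in the stricter 50%, 11 in gene bodies alone, and 20 to 38 with a replicate left out. Sox2-positive regions absent from incisor numbered 8 by p-value, 7 by signal, 7 with summit windows, and 7 to 8 with a replicate left out. Incisor regions absent from Sox2-positive cells numbered 11 by p-value, 10 by signal, 21 in the stricter 50%, 24 within 25 kb, 22 in gene bodies, and 49 to 56 with a replicate left out. As a share this pattern was near that of all regions, at 30.5% against 29.9% in the full lists. It was 11.8% against 12.2% with 38000 peaks by p-value. Shorter lists and narrower windows hold fewer regions, and shares under the other settings were not computed. Molar regions absent from incisor numbered 5 within 25 kb and 3 in gene bodies, and incisor regions absent from molars 14 in the stricter 50% and 16 in gene bodies. Leaving out a replicate could not lower any of these counts, and a narrower window could not raise them, so those directions were set by the rules.

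The count of distal Runx promoters with a peak in both Sox2-positive and neither ectoderm library was 3 under every list of 38000 peaks, summit windows, each left-out replicate, 500 bp and, chosen after seeing the data, a peak over the start base itself. Leaving out a replicate could not lower this count. Shorter lists or narrower windows could not add an ectoderm peak, so they tested only whether the Sox2-positive peaks remained. The count was 1 in the stricter 50% and 2 within 2.5 kb. With the replicate number as a block, the summed difference was 2 peaks, and 2 pairs allow no exact p under 0.5. The labels do not pair embryos with P2 mice, and same-numbered deviations had a correlation of 0.00121 over 20661 genes.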
